A study of Mus musculus with 17 samples.

Results

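The 42 genes described here belong largely to the postsynaptic side of the glutamate synapse, although some metabotropic receptors act presynaptically. They encode ionotropic and metabotropic glutamate receptors and the Dlg, Dlgap, Shank and Homer scaffold proteins. Cacng2 to Cacng8 are also among them, and most of these encode TARP auxiliary subunits. The members were chosen by gene symbol. Of the 47 symbols of the rule, 42 had a probe set that names a single gene, of 18194 genes measured. Each gene is given by its brightest probe set over all arrays, and the 42 genes had 87 probe sets in all. RNA came from 17 female C57BL/6 mice labelled as 8 weeks old, with 1 array per mouse, from a 4.5 mm length of thoracic spinal cord. The naive group (n = 6) received no treatment. The isotype control group (n = 5) and the anti-RGMa group (n = 6) both had targeted EAE, a model of localized inflammatory demyelination. These mice were immunized with a myelin peptide in complete Freund's adjuvant, and 3 weeks later the cord was exposed by laminectomy at Th8 and injected with TNF-α and IFN-γ, with pertussis toxin given intravenously. From 9 days post-injection the animals received 10 mg/kg of either a control antibody or a humanized antibody against repulsive guidance molecule a (RGMa) in repeated doses, and cords were taken at 14 days post-injection. Both EAE groups thus differed from the naive group by immunization, surgery, cytokines, toxin and an injected antibody, and these cannot be told apart in a comparison with naive mice. The label gives 8 weeks for every mouse, although EAE cords were taken more than 3 weeks after immunization. Whether naive and EAE mice were of equal age at sampling is not known here, and an age difference could not be told apart either. Mice without surgery but with antibody, and operated mice without immunization, were not analysed here.

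Glutamate carries most fast excitation in the spinal cord. AMPA receptors pass the fast synaptic current, kainate and NMDA receptors shape slower currents and calcium entry, and metabotropic receptors act through G proteins on either side of the synapse. TARPs escort AMPA receptors to the membrane and set their gating, while Dlg, Dlgap, Shank and Homer proteins form layers of the postsynaptic density that hold the receptors in place.

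Promoter windows of RefSeq (assembly GRCm38.p6, 250 bases before to 50 bases after a gene's start) were matched by symbol for 30 of the 42 genes, in 45 windows. The window of Dlgap4 is shown because this gene, unlike most of the 42, was higher in EAE, as given further on. It lies at chr2:156720715-156721014 on the plus strand. Capitals mark the GC boxes (GGGCGG) and NRF-1 core (GCGCATGC, here on the other strand).
Dlgap4: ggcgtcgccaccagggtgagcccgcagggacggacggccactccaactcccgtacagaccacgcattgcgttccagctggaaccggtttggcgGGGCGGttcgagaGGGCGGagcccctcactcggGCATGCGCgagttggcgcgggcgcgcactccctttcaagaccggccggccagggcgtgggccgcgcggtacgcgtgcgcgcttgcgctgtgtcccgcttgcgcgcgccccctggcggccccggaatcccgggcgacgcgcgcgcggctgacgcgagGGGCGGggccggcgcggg

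GC boxes stood in 42.2% of the members' windows, in 17 of the 30 genes, against 35.7% of all 32851 windows, both strands being searched. The NRF-1 core stood in the window of Dlgap4 alone, 2.22% of the members' windows against 2.71% of all. A TATA box (TATAAA) stood in 8.89% against 13.6%, an E-box (CACGTG) in 6.67% against 7.15%, and the cyclic AMP response element (TGACGTCA) in none of the members' windows against 1.79%. The median GC content was 60.0% in the members' windows and 52.7% in all. These letter matches describe the windows and were not tested against the responses.

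Some arrays stood apart. The mean log2 signal of 22 neuron markers ranged from 12.68 to 12.79 in naive cords, from 11.34 to 12.03 in isotype control cords and from 11.52 to 12.43 in anti-RGMa cords. The mean of 17 macrophage and monocyte markers ranged from 7.53 to 8.15, from 11.44 to 12.35 and from 11.20 to 12.27 in the same order, and no signal of any gene was listed at 0. The array of anti-RGMa replicate 6 stood lowest in its group for neuron markers and highest for macrophage markers. The mean of 20 skeletal muscle markers was 12.62 in isotype control replicate 4, 8.76 in replicate 3 and 8.95 in replicate 5, against 4.76 to 7.85 in naive cords, and 8 of the 20 were higher in isotype control than in naive cords by the rule used for the members. The mean of 6 dorsal root ganglion markers was 8.54 in anti-RGMa replicate 1 and 7.24 in replicate 6, against 4.77 to 5.03 in the rest of that group, 4.71 to 5.08 in isotype control and 4.49 to 6.38 in naive cords, and 0 of the 6 passed the rule in any comparison. The main counts are also given without some of these arrays, and single genes only where stated.

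Compared with naive cords, the isotype control cords had lower signals of 20 of the 42 genes at an adjusted p under 0.05 (limma, Benjamini-Hochberg over all genes) with a fold over 1.5, and higher signals of 0. Over all genes tested 14.9% were lower and 17.2% higher by the same rule. The median log2 fold change of the 42 genes was -0.57, against -0.04 over all genes, and 36 of the 42 lay below 0. With any 1 array left out, 15 to 21 were lower, fewest when naive replicate 6 or isotype control replicate 1 was missing. Over all genes those fits gave 2667 and 2454 lower, against 2709 with all arrays. The count was 20 when isotype control replicate 4 was missing. With the mean of the muscle markers as a covariate 17 were lower, beside 2755 over all genes. Cacng2, Cacng8 and Dlgap3 then missed the threshold. In 14 of the 20 genes the 5 isotype control arrays did not overlap the 6 naive arrays. Genes already called lower favour such separation, and its share over all genes was not counted. Lower were 12 of the 22 receptors, 4 of the 7 Cacng genes and 4 of the 13 scaffolds. In whole tissue, fewer neurons and less RNA of these genes per neuron cannot be told apart. Each array was instead centred on its 22 neuron markers, which shifted the median of all genes to 0.98. The split then turned to 2 lower and 14 higher, with Cacng3 and Grm8 still lower. Over all 18194 genes 75 were then lower and 11628 higher. With arrays centred on their medians, which moved the median of all genes to -0.27, 26 members were lower and 0 higher. Over all genes 4455 were lower and 2393 higher in that setting.

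**Figure D1:**
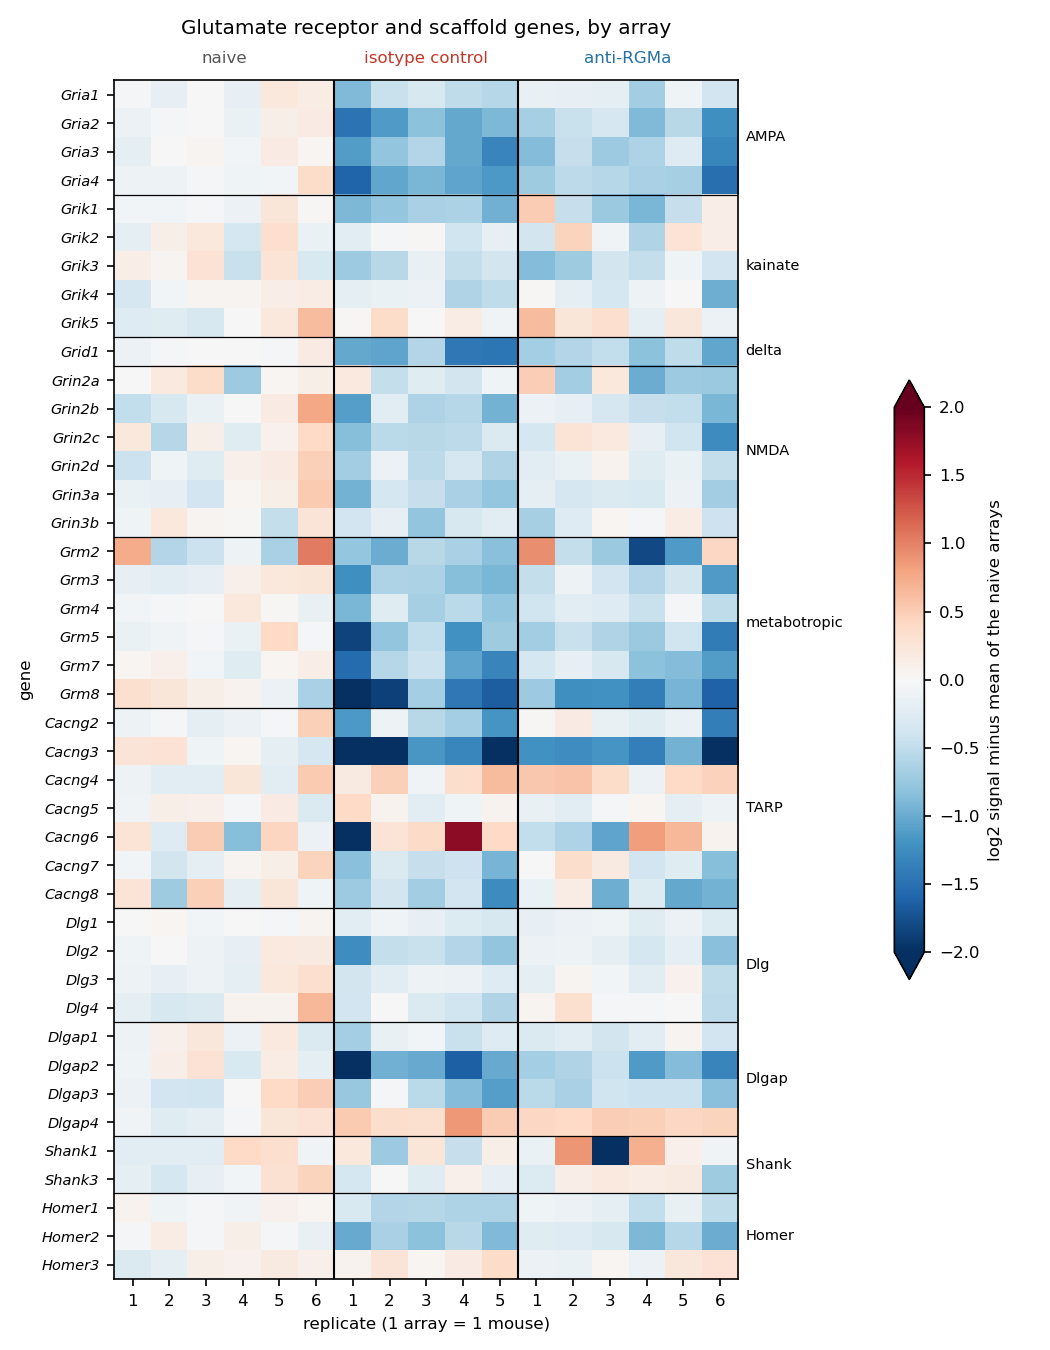
Log2 signal of each of the 42 genes (rows, grouped by family) in each of the 17 arrays (columns, numbered by replicate), minus the gene's mean over the 6 naive arrays. Blue marks lower and red higher signals, with the colour scale ending at 2 log2 units in each direction. Most receptor rows are blue in the EAE groups, Dlgap4 is red throughout them, and anti-RGMa replicate 6 is bluer than the rest of its group.

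Among the AMPA receptor subunits 3 of 4 were lower in isotype control than in naive cords. Gria2 encodes the subunit that, once its RNA is edited, keeps calcium from passing through the channel. Its log2 signal in naive cords ran from 11.50 over a median of 11.60 to 11.80. In isotype control replicates 1 to 5 it was 10.15, 10.50, 10.81, 10.60 and 10.72, and in anti-RGMa cords it ran from 10.40 over 11.02 to 11.29. Every EAE array lay below every naive array, while the antibody groups overlapped. Gria2 fell by 1.07 on the log2 scale in isotype control cords (SE 0.15, adjusted p = 2.55e-05, limma) and by 0.69 in anti-RGMa cords (SE 0.14, adjusted p = 0.00125), to 47.5% and 62.2% of the naive signal. The other probe sets of Gria2 gave -0.75 and -0.62 for isotype control and passed the threshold too.

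Gria4, a subunit of fast AMPA receptors, had naive signals from 11.33 over 11.36 to 11.79. Its isotype control values were 9.82, 10.39, 10.52, 10.38 and 10.28, and its anti-RGMa values ran from 9.92 over 10.77 to 10.90. The naive arrays were above all EAE arrays, and anti-RGMa replicate 6 lay far below the rest of its group. The fall was 1.15 on the log2 scale with isotype control antibody (SE 0.17, adjusted p = 3.77e-05, limma) and 0.77 with anti-RGMa antibody (SE 0.16, adjusted p = 0.00123). Gria3 fell in both groups, by 0.97 and by 0.70, with no overlap with the naive arrays. Without anti-RGMa replicates 1 and 6 its anti-RGMa difference from naive was -0.51, under the fold threshold. Gria1, which encodes a subunit tied to activity-dependent insertion of AMPA receptors, differed by -0.55 (adjusted p = 0.00141) in isotype control cords, a fold of 1.46 that stayed under the threshold, and by -0.28 (adjusted p = 0.0722) in anti-RGMa cords.

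Kainate receptor subunits were lower in 1 of 5. Grik1 encodes a subunit of kainate receptors found in sensory pathways. Its naive signals ran from 8.24 over 8.32 to 8.61, the isotype control values were 7.46, 7.58, 7.72, 7.73 and 7.40, and the anti-RGMa values ran from 7.44 over 7.90 to 8.87. All isotype control arrays were below the naive arrays, whereas the anti-RGMa arrays spread across both. The highest anti-RGMa values, 8.87 in replicate 1 and 8.498 in replicate 6, came from the arrays with raised dorsal root ganglion markers, and the naive array highest in Grik1, replicate 5, was also the naive array highest in those markers (6.38). Grik1 fell by 0.78 in isotype control cords (SE 0.20, adjusted p = 0.00375, limma), and its anti-RGMa difference from naive was -0.32 (adjusted p = 0.198). Without anti-RGMa replicates 1 and 6, an alternative chosen after seeing the data, that difference was -0.64 (adjusted p = 0.000553) and passed. Grik3, a low-affinity subunit, had naive signals from 7.65 over 8.19 to 8.40 and isotype control values of 7.38, 7.55, 7.96, 7.63 and 7.74. Its anti-RGMa values ran from 7.23 over 7.68 to 8.01, and all 3 groups overlapped. The differences of Grik3 from naive were -0.45 (adjusted p = 0.0290) and -0.48 (adjusted p = 0.0205), both under the fold threshold. Grik2, Grik4 and Grik5 differed by -0.16, -0.31 and 0.09 in isotype control cords and did not pass.

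The delta receptor subunit Grid1, a partner of cerebellin proteins at synapses, had the lowest adjusted p of the 42 genes for isotype control. In naive cords it ran from 8.48 over 8.58 to 8.77. Isotype control cords gave 7.57, 7.54, 8.02, 7.17 and 7.15, and anti-RGMa cords ran from 7.55 over 7.96 to 8.10. Neither EAE group reached the naive range, and the antibody groups overlapped. Grid1 fell by 1.11 on the log2 scale with isotype control antibody (SE 0.14, adjusted p = 1.13e-05, limma) and by 0.69 with anti-RGMa antibody (SE 0.14, adjusted p = 0.000831).

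Of the NMDA receptor subunits, which need glutamate and a co-agonist to open, 2 of 6 were lower in isotype control cords, and all 6 had a log2 fold change below 0, with a median of -0.51. Grin3a, whose subunit lowers calcium permeability, ran from 8.49 over 8.82 to 9.40 in naive cords and from 8.17 over 8.57 to 8.75 in anti-RGMa cords. Its isotype control values were 7.93, 8.52, 8.41, 8.23 and 8.09, and the naive and isotype control ranges overlapped slightly. Grin3a fell by 0.63 in isotype control cords (SE 0.15, adjusted p = 0.00249, limma), while the anti-RGMa difference was -0.32 (adjusted p = 0.0913). Grin2b encodes a subunit that gives NMDA receptors slow decay. Its naive values ran from 8.28 over 8.70 to 9.53, isotype control values were 7.67, 8.55, 8.16, 8.20 and 7.83, and anti-RGMa values ran from 7.85 over 8.37 to 8.65. Naive replicate 6 stood highest, and the groups overlapped. Grin2b fell by 0.69 (SE 0.21, adjusted p = 0.0128, limma) in isotype control cords and was no longer past the threshold without naive replicate 6, where the difference was -0.54. The anti-RGMa difference of Grin2b was -0.42 (adjusted p = 0.118). Grin2b and Grin3a each had another probe set past the threshold in anti-RGMa cords. Grin2d differed by -0.46 (adjusted p = 0.0181) in isotype control cords, under the fold threshold, and Grin2c and Grin3b by -0.56 and -0.37 without passing. The probe set of Grin2a was dim (mean log2 signal 4.81), close to 24 genes of other organs that served as a background reference, whose mean per array ran from 3.64 to 6.12.

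The metabotropic receptors had the highest share of lower genes among the families with several members, 5 of 6, with a median of -0.92. Grm3 couples to inhibitory G proteins and is made by astrocytes as well as neurons. It ran from 9.76 over 9.95 to 10.22 in naive cords and from 8.85 over 9.56 to 9.89 in anti-RGMa cords, and the isotype control values were 8.75, 9.36, 9.35, 9.14 and 9.06. Isotype control arrays stayed below the naive range and anti-RGMa arrays reached into it. Grm3 fell by 0.85 in isotype control cords (SE 0.16, adjusted p = 0.000427, limma), and differed by -0.51 (adjusted p = 0.0163), a fold of 1.42, in anti-RGMa cords.

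Grm4, a presynaptic receptor that restrains transmitter release, had naive signals from 8.99 over 9.13 to 9.36. The isotype control values were 8.22, 8.91, 8.48, 8.60 and 8.37, all below the naive range, and the anti-RGMa values ran from 8.63 over 8.82 to 9.12, overlapping both. Its fall was 0.63 in isotype control cords (SE 0.12, adjusted p = 0.000306, limma), and the anti-RGMa difference was -0.31 (adjusted p = 0.0363), under the fold threshold. Grm5, which signals through phospholipase C and binds Homer, fell by 1.01 and by 0.71, and Grm7, another presynaptic receptor, by 0.98 and by 0.61, in isotype control and anti-RGMa cords respectively. Grm8 fell by 1.90 and by 1.18, but it was dim, at a mean signal of 6.32, against group means of 4.09 to 4.54 for the background reference. The isotype control value of Grm8 was 3.40 in replicate 1 and between 5.44 and 6.62 in the others.

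The Cacng genes, most of which encode TARPs, showed the widest range. Cacng3 encodes a TARP best known from cortical neurons. Its naive values ran from 8.10 over 8.42 to 8.72, the isotype control values were 5.40, 6.35, 7.28, 7.13 and 6.31, and the anti-RGMa values ran from 6.18 over 7.21 to 7.49. All EAE arrays lay below all naive arrays. Cacng3 fell by 1.94 on the log2 scale in isotype control cords (SE 0.30, adjusted p = 5.54e-05, limma), to 26.0% of naive, and by 1.36 in anti-RGMa cords (SE 0.28, adjusted p = 0.00121), to 38.9%. Cacng2 (stargazin), the founding TARP, fell by 0.73 (adjusted p = 0.0233) in isotype control cords and differed by -0.29 (adjusted p = 0.377) in anti-RGMa cords. Its dimmer probe sets gave -1.50, which passed, and -0.46, which did not, in isotype control cords. In anti-RGMa cords too Cacng2 had another probe set past the threshold. Cacng8, dim at a mean of 6.82, fell by 0.69 (adjusted p = 0.0347) in isotype control cords. Cacng7 encodes an atypical TARP. Its naive values ran from 9.16 over 9.51 to 9.96, the isotype control values were 8.68, 9.23, 9.05, 9.11 and 8.58, and the anti-RGMa values ran from 8.66 over 9.39 to 9.86. The ranges overlapped, and the fall of 0.58 in isotype control cords (SE 0.20, adjusted p = 0.0230, limma) only just met the fold threshold, which it missed without naive replicate 4, 5 or 6 or isotype control replicate 1 or 5 (lowest difference -0.50). The dimmer probe set of Cacng7 gave -1.59 in isotype control cords and passed, and it was past the threshold in anti-RGMa cords too. Cacng4, a TARP also made by glia, was 0.31 and 0.37 above naive (adjusted p = 0.134 and 0.0739), and Cacng5 and Cacng6 differed by 0.05 and 0.14 in isotype control cords, none passing.

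Among the scaffolds, 4 of 13 were lower and the median log2 fold change in isotype control cords was -0.32. Dlg2, which clusters NMDA receptors and potassium channels, ran from 10.38 over 10.50 to 10.76 in naive cords. Isotype control values were 9.31, 10.08, 10.11, 9.96 and 9.77, all below naive, and anti-RGMa values ran from 9.71 over 10.38 to 10.46, with replicate 6 lowest. Dlg2 fell by 0.71 in isotype control cords (SE 0.16, adjusted p = 0.00123, limma), and its anti-RGMa difference was -0.29 (adjusted p = 0.128). Its dimmer probe sets gave -1.02 and -1.12 in anti-RGMa cords and passed, and so did the mean of its probe sets, at -0.81 (adjusted p = 0.00112). Dlg1, a scaffold found in many cell types, ran from 11.30 over 11.34 to 11.40 in naive cords, from 11.07 over 11.21 to 11.26 in anti-RGMa cords, and was 11.11, 11.28, 11.19, 11.07 and 11.02 in isotype control cords. The EAE arrays were all below the naive arrays, by a small margin. The differences of Dlg1 were -0.21 (adjusted p = 0.00738) and -0.17 (adjusted p = 0.0269), folds of 1.16 and 1.12. A dimmer probe set of Dlg1 gave -0.83 in isotype control cords and passed the threshold.

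Dlg4, the main scaffold of the excitatory postsynaptic density, differed by -0.34 (adjusted p = 0.126) in isotype control and by -0.03 (adjusted p = 0.900) in anti-RGMa cords on its brightest probe set. Its second probe set gave -1.12 in isotype control cords and passed. Probe sets likewise disagreed for Dlgap1, Grik2 and Homer1, so that 5 genes not counted as lower had another probe set past the threshold for isotype control, and none had one past it in the higher direction. In the other direction, Cacng8 and Grid1 were counted as lower with no other probe set past the threshold, the other probe set of Cacng8 being at -0.00161. With the mean of probe sets 18 genes were lower, all among the 20, and Cacng8 (-0.35) and Grin2b (-0.38) were not. Over all genes 2611 were lower in that setting.

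Dlgap proteins bind the guanylate kinase domain of Dlg proteins and link them to Shank. Dlgap2 ran from 6.18 over 6.51 to 6.77 in naive cords and from 5.16 over 5.71 to 6.06 in anti-RGMa cords, and was 4.20, 5.52, 5.47, 4.86 and 5.47 in isotype control cords, each of them below the naive range. Dlgap2 fell by 1.38 (SE 0.23, adjusted p = 0.000120, limma) and by 0.84 (SE 0.22, adjusted p = 0.00606), at signals near the background reference. Dlgap3 fell by 0.66 (adjusted p = 0.00884) in isotype control cords.

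Dlgap4 went the other way. Naive cords ran from 9.03 over 9.22 to 9.56, isotype control cords gave 9.79, 9.63, 9.58, 10.13 and 9.78, and anti-RGMa cords ran from 9.67 over 9.70 to 9.76. Every EAE array was above every naive array. Dlgap4 was 0.51 above naive in isotype control cords (SE 0.11, adjusted p = 0.000959, limma) and 0.44 above it in anti-RGMa cords (SE 0.10, adjusted p = 0.00334), folds of 1.43 and 1.36 that stayed under the threshold of 1.5. Its dimmer probe set gave 0.03 and 0.09, and with the mean of both probe sets the isotype control difference was 0.27 (adjusted p = 0.0738).

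Shank3, a master scaffold that joins Dlgap and Homer proteins, ran from 8.11 over 8.36 to 8.92 in naive cords, was 8.11, 8.47, 8.23, 8.56 and 8.29 in isotype control cords, and ran from 7.75 over 8.60 to 8.66 in anti-RGMa cords. The groups overlapped throughout. Shank3 differed by -0.13 (95% confidence interval -0.52 to 0.25, adjusted p = 0.578, limma) in isotype control cords and by -0.06 (-0.42 to 0.31, adjusted p = 0.833) in anti-RGMa cords. Shank1 was dim, at a mean of 5.53, and differed by -0.12 (SE 0.41) in isotype control cords.

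Homer1 encodes long forms that tie metabotropic receptors to Shank and a short form induced by activity. Its naive signals ran from 9.56 over 9.65 to 9.73, the isotype control values were 9.35, 9.06, 9.08, 9.02 and 9.03, and the anti-RGMa values ran from 9.14 over 9.48 to 9.55. No EAE array reached the naive range, and isotype control replicate 1 stood above the other 4. Homer1 differed by -0.54 (SE 0.09, adjusted p = 0.000142, limma) in isotype control cords, a fold of 1.45, and by -0.26 (adjusted p = 0.0275) in anti-RGMa cords. Homer2 fell by 0.78 (adjusted p = 0.000221) in isotype control cords, and its anti-RGMa difference was -0.55 (adjusted p = 0.00383), a fold of 1.46. Homer3 differed by 0.18 (adjusted p = 0.197) and 0.03 (adjusted p = 0.852).

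**Figure D2:**
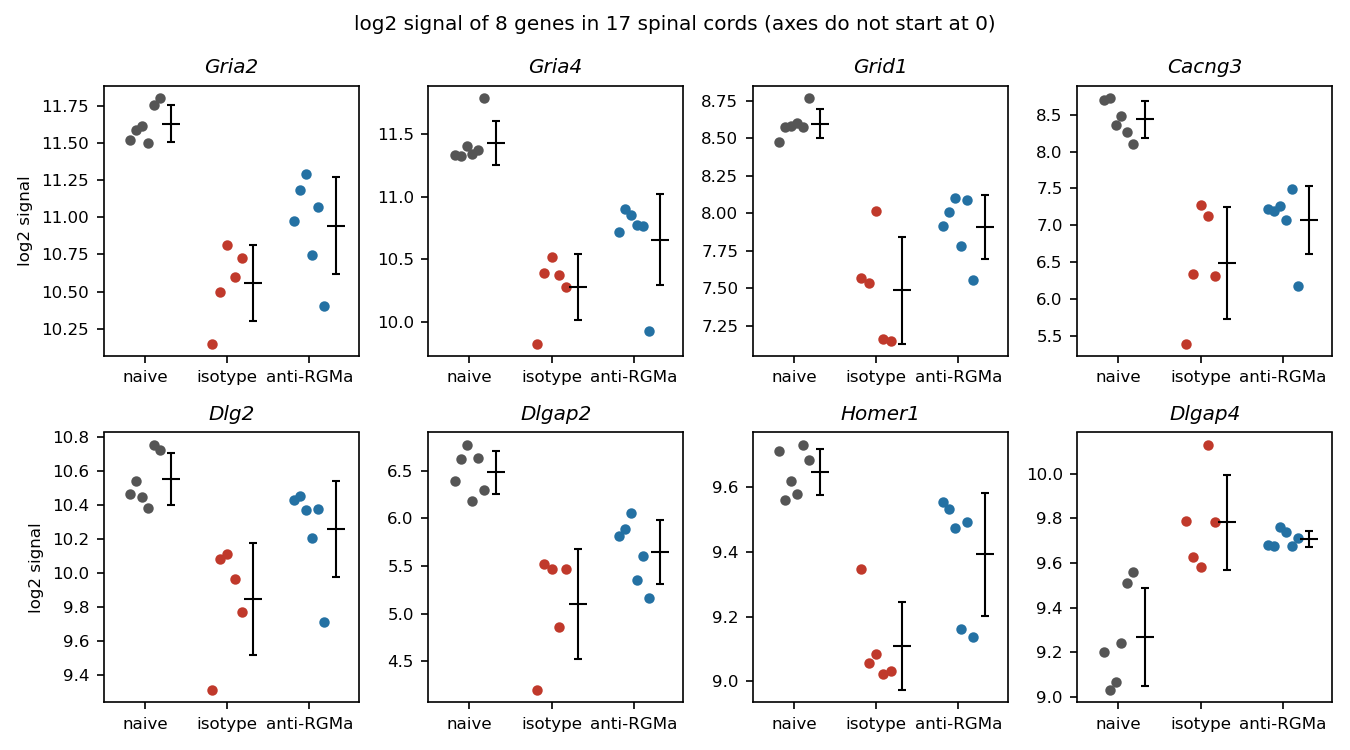
Log2 signal of 8 of the genes in each mouse (points), by group, with the group mean and SD beside them (bars). Each panel has its own axis, which does not start at 0. Gria2, Gria4, Grid1, Cacng3, Dlgap2 and Homer1 have all EAE arrays below the naive arrays, Dlg2 has its anti-RGMa arrays reaching into the naive range, and Dlgap4 has all EAE arrays above it.

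In the anti-RGMa cords 9 of the 42 genes were lower than in naive cords and 0 higher by the same rule, against 8.30% lower and 13.2% higher over all genes. The 9 were Gria2, Gria3, Gria4, Grid1, Grm5, Grm7, Grm8, Cacng3 and Dlgap2. In 8 of them no anti-RGMa array reached the naive range, a separation whose share over all genes was not counted. The median of the 42 genes was -0.29, against -0.03 over all genes. This comparison shares its naive arrays with that of the isotype control group. Leaving out anti-RGMa replicate 6 left 5 lower, beside 1059 over all genes, against 1511 over all genes with every array. Gria2 and Grm5 were then at -0.58 each and Grm7 at -0.50, under the fold threshold, while Grm8 was at -1.097 and missed on its adjusted p. Without replicates 1 and 6 together 6 were lower, beside 1094 over all genes, and 4 of the 6 were among the 9. Gria2, Gria3, Grm5, Grm7 and Grm8 were lost, and Grik1 and Grm2 were added. With the mean of probe sets 8 were lower, of which 6 were among the 9, beside 1529 over all genes. Gria2 (-0.53), Grm5 (-0.51) and Grm7 (-0.64) were lost, and Cacng7 (-0.74) and Dlg2 (-0.81) were added. By single probe sets, 8 genes not counted as lower had another probe set past the threshold. They were Cacng2, Cacng7, Dlg2, Dlgap1, Grin2b, Grin3a, Homer1 and Homer2. Grid1, Grm5 and Grm7 were counted as lower with no other probe set past it. Centring on the neuron markers gave 1 lower (Cacng3) and 4 higher (Cacng4, Dlgap4, Grik5 and Homer3). Over all 18194 genes it gave 87 lower and 6705 higher, with a median of 0.55. Array medians gave 15 lower and 0 higher, beside 3039 lower and 1874 higher over all genes, whose median was -0.22.

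**Figure D3:**
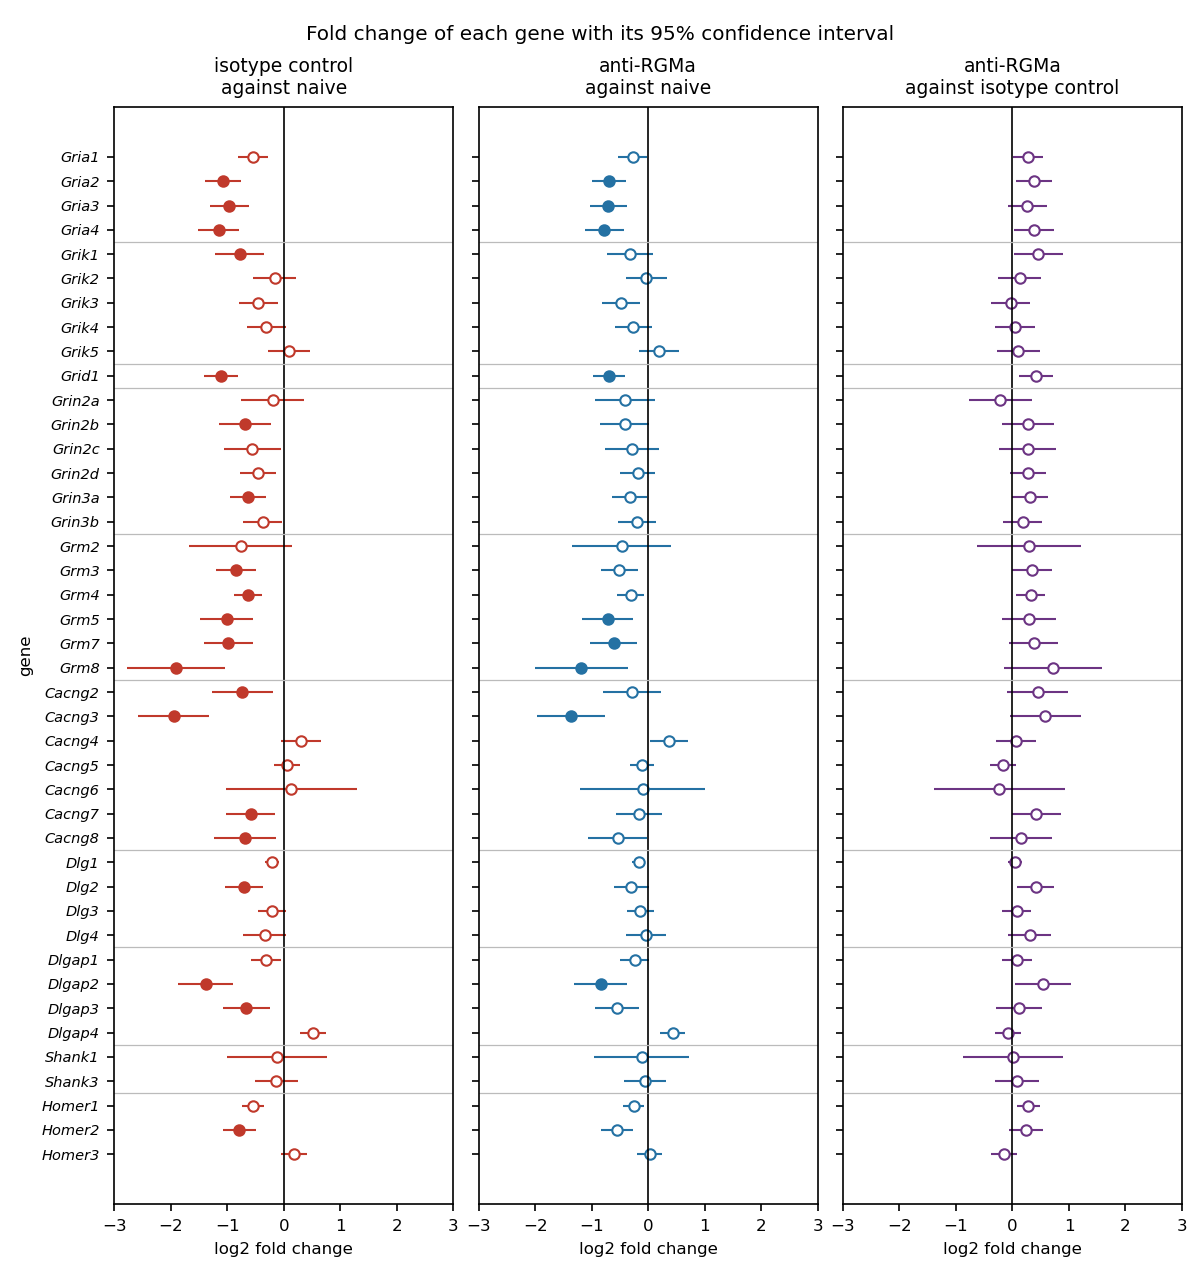
Log2 fold change of each of the 42 genes (points) with its 95% confidence interval (lines) in the 3 comparisons, from the limma fit over all genes. Filled points passed the threshold of the comparison, which is 20 genes in the first panel, 9 in the second and 0 in the third. The first and second panels share the naive arrays.

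Differences between members within an array do not depend on how the array was scaled. Over 8 pairs of genes and 3 comparisons, 24 exact two-sided permutation tests over arrays were run. Gria2 minus Gria1 was 1.59 ± 0.08 (SD, n = 6) in naive cords and 1.06 ± 0.13 (n = 5) in isotype control cords, a difference of -0.53 (exact permutation p = 0.00433, adjusted p = 0.0346). In anti-RGMa cords it was 1.18 ± 0.25 (n = 6), a difference of -0.41 (exact permutation p = 0.00216, adjusted p = 0.0346). Every EAE array had a smaller value than every naive array. Homer1 minus Homer3 was 1.90 ± 0.20 (n = 6) in naive and 1.18 ± 0.24 (n = 5) in isotype control cords, with the same exact permutation p of 0.00433 and adjusted p of 0.0346. These p-values are the smallest that 6 against 5 and 6 against 6 arrays can give. The anti-RGMa value of 1.61 ± 0.31 (n = 6) for Homer1 minus Homer3 lay between, 0.43 above isotype control (exact permutation p = 0.0476, adjusted p = 0.190) and 0.29 below naive (exact permutation p = 0.0823, adjusted p = 0.219). With 1 array left out in turn, Gria2 minus Gria1 ran from -0.58 to -0.49 and Homer1 minus Homer3 from -0.80 to -0.64 for isotype control, and Gria2 minus Gria1 from -0.46 to -0.33 for anti-RGMa. Taking the mean of each gene's probe sets changed these results, with Gria2 minus Gria1 in anti-RGMa cords at -0.22 (exact permutation, adjusted p = 0.104). Homer1 minus Homer3 in anti-RGMa cords was then at -0.59 against naive (exact permutation, adjusted p = 0.0346) and at -0.0608 against isotype control, so that it no longer lay between. Gria4 minus Gria2, Grin2a minus Grin2b, Grin2d minus Grin2b, Grm3 minus Grm5, Dlg4 minus Dlg1 and Shank3 minus Shank1 did not pass in any comparison, although Gria4 minus Gria2 passed against naive for both antibody groups, and Dlg4 minus Dlg1 for isotype control, once probe sets were averaged.

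**Figure D4:**
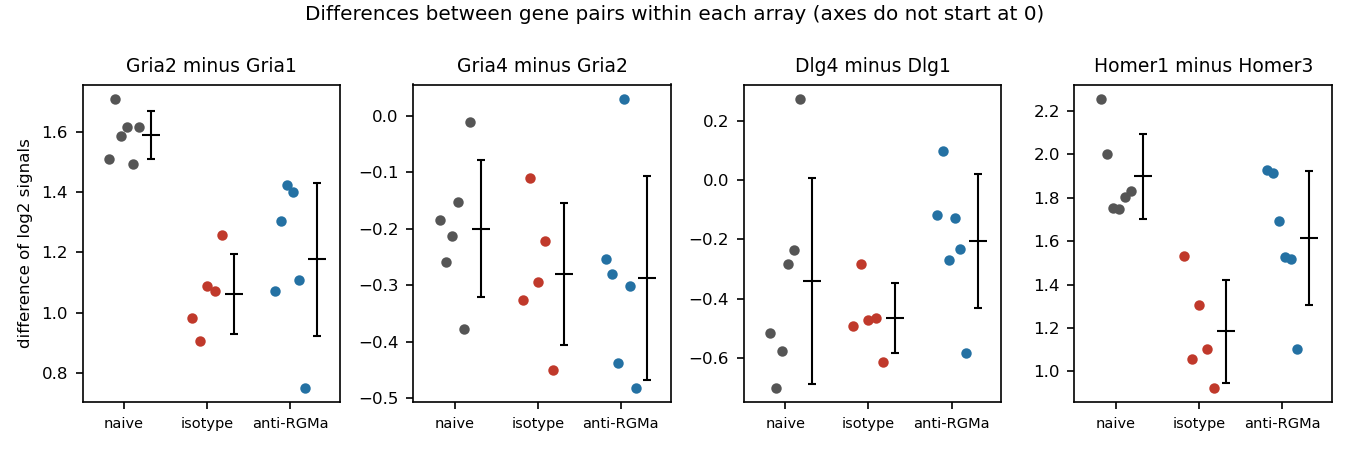
Difference of the log2 signals of a pair of genes within each array (points), by group, with mean and SD (bars), for 4 of the 8 pairs. Axes do not start at 0. Gria2 minus Gria1 is below the naive values in all EAE arrays, and Gria4 minus Gria2 overlaps between all groups.

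Other genes of the glutamate synapse moved in the same comparison. Of 38 partners, which include transporters, adhesion proteins and signalling enzymes, 26 were lower and 2 higher in isotype control cords, with a median of -0.79. The higher genes were Synpo, which encodes an actin-binding protein of dendritic spines (2.63, adjusted p = 4.85e-07, limma), and Slc1a3, an astrocyte glutamate transporter (1.62, adjusted p = 1.13e-05). Slc1a3 also stands in the list of 14 astrocyte markers, where it was the 1 higher gene. In that list 6 genes were lower, 11 lay below 0, and the median was -0.44. Kalrn, a regulator of dendritic spines, and Cbln2, a ligand of delta receptors, fell by 1.07 and by 1.56. Of 19 GABA and glycine receptor genes 16 were lower and 0 higher (median -1.14), of 21 synaptic vesicle release genes 17 were lower and 0 higher (median -1.05), and of the 22 neuron markers 21 were lower and 0 higher (median -1.02). Against these counts stand the 20 of 42 glutamate receptor and scaffold genes with a median of -0.57. Of the 17 macrophage and monocyte markers 17 were higher, with a median of 3.70. The part of the neuron and macrophage levels in the members' differences was not tested.

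**Figure D5:**
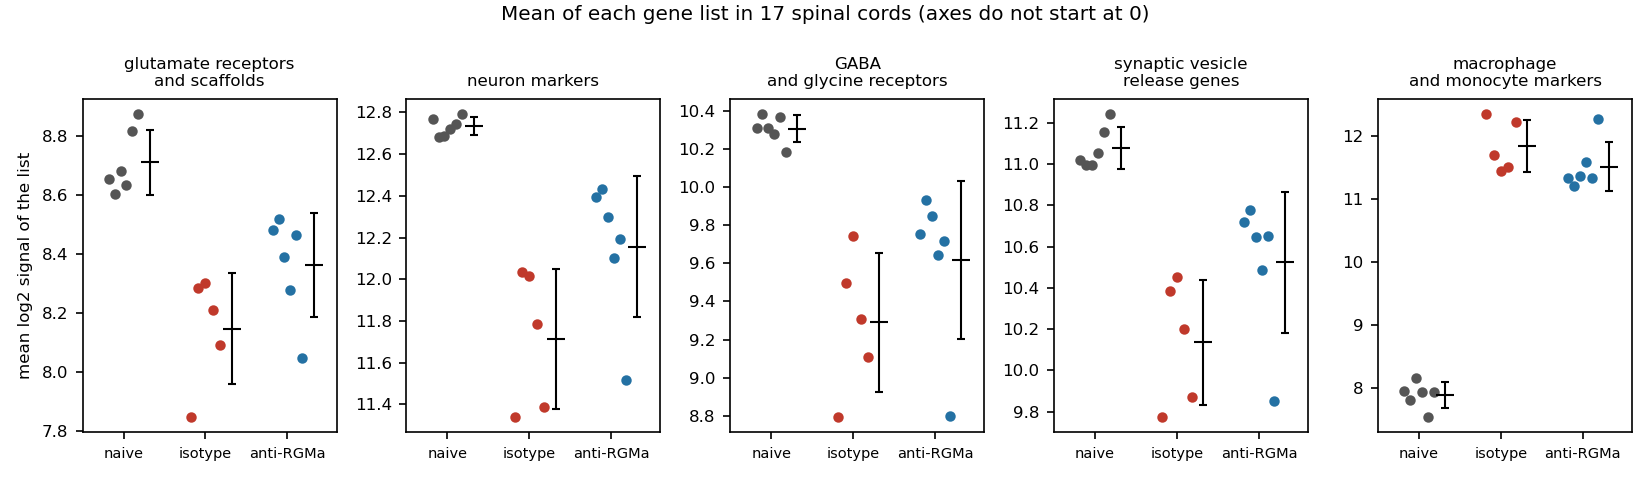
Mean log2 signal of 5 gene lists in each array (points), by group, with mean and SD (bars). Axes do not start at 0. The glutamate receptors and scaffolds, the neuron markers, the GABA and glycine receptors and the vesicle genes are lower in all EAE arrays than in all naive arrays, the macrophage and monocyte markers are higher, and anti-RGMa replicate 6 is the lowest of its group in the first 4 panels and the highest in the last.

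Whether the antibody against RGMa altered these genes was asked by comparing the antibody groups with each other. At an unadjusted p under 0.05 and a fold over 1.5, the threshold of the study for this comparison, 0 of the 42 genes were higher and 0 lower in anti-RGMa than in isotype control cords, against 1.22% higher and 2.72% lower over all genes. At an adjusted p under 0.05 in either direction there were 0 as well (limma), and 0.00550% over all genes, which is a single gene. Without anti-RGMa replicate 6, 7 of the 42 passed at that adjusted p, all higher, beside 994 genes higher and 509 lower over all genes. At an unadjusted p under 0.05 and any fold, 9 of the 42 differed, 21.4% against 15.8% of all genes, and all 9 were higher in the anti-RGMa cords, by 1.21 to 1.46 times. With 1 array left out this count ran from 2 without isotype control replicate 1 to 19 without anti-RGMa replicate 6. Over all 18194 genes the same 2 fits gave 2069 and 4775. The lowest adjusted p was 0.223. Of the 42 log2 fold changes 36 lay above 0, with a median of 0.27 against 0.01 over all genes. Centred on the neuron markers, the split was 0 higher and 3 lower (Cacng5, Grin2a and Homer3) with a median of -0.17. Over all 18194 genes that centring gave 24 higher and 3286 lower, with a median of -0.43. The neuron markers themselves had a median of 0.47, with 3 of 22 higher, and the macrophage and monocyte markers one of -0.25, with 3 of 17 lower.

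In log2 units these genes were the AMPA receptor subunits Gria1 (0.27, adjusted p = 0.308), Gria2 (0.39, adjusted p = 0.261) and Gria4 (0.38, adjusted p = 0.302), all from the limma fit. The others were the kainate subunit Grik1 (0.46, adjusted p = 0.298), the delta subunit Grid1 (0.42, adjusted p = 0.225), the metabotropic receptor Grm4 (0.32, adjusted p = 0.243) and the scaffolds Dlg2 (0.41, adjusted p = 0.253), Dlgap2 (0.54, adjusted p = 0.291) and Homer1 (0.28, adjusted p = 0.223). The 95% confidence interval of Grid1 was 0.12 to 0.72 and that of Homer1 0.09 to 0.48. In each of these genes the antibody groups overlapped. With the mean of its probe sets Homer1 was at -0.21, and the dimmer probe sets of Dlg2 gave 0.02 and 0.06. Grik1 was at 0.14 (unadjusted p = 0.244) without anti-RGMa replicates 1 and 6, the arrays with raised dorsal root ganglion markers. Cacng3 had a difference of 0.58 (interval -0.05 to 1.21) and Grm8 one of 0.72 (-0.14 to 1.58). Without anti-RGMa replicate 6, Cacng2, Cacng3 and Dlgap2 were past the threshold of the study, as they were without replicates 1 and 6 together. Without isotype control replicate 4, the array with the highest muscle markers, Cacng3 was. Over all 18194 genes these fits gave 537, 563 and 275 higher, in that order, against 222 with all arrays. A dimmer probe set of Dlg4 was past it in the fit over probe sets, at 0.60 (unadjusted p = 0.0102). Shank3, Dlg1 and Dlgap4 had differences of 0.08 (interval -0.31 to 0.46), 0.04 (-0.08 to 0.17) and -0.07 (-0.31 to 0.16). Across all 42 genes the mean log2 signal per array ran from 8.60 to 8.87 in naive cords, from 7.85 to 8.30 in isotype control cords and from 8.05 to 8.52 in anti-RGMa cords, lowest in replicate 6, and the antibody groups overlapped.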

How the data were processed

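The deposited values are signal intensities on a linear scale from Affymetrix Mouse Genome 430 2.0 arrays, which the authors computed with MAS 5.0 and scaled globally, one array per mouse. Tools named in the submitters' processing notes are MAS5 and affy, the latter with no version given in the sources used here. Trimmed by 2% at either end, the signals averaged 500.0 in every array, and array medians ran from 131.5 to 164.8. Precision is limited by how many arrays there are.

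Of 45101 probe sets, 34958 name 1 gene, 932 several and 9211 none. Of the single-gene probe sets 34754 were matched by gene ID to RefSeq genes of GRCm38.p6. Each gene was taken from its probe set with the highest mean log2 signal. Log2 signals, with no offset or filter, entered limma (version 3.58.1, under R 4.3.3) as 1 linear model of the 3 groups with moderated variances, with Benjamini-Hochberg adjustment over all 18194 genes. The fit was tested on simulated data. Pairs of genes were compared by exact permutation over arrays (scipy 1.17.1).

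The members, gene lists and tests were chosen with earlier results of these data known. Per family, values per array are given for the genes with the smallest p in each of the comparisons of isotype control with naive (2 genes, or 1 in small families) and of the antibody groups (1 gene), and of other lists up to 4 genes. Other genes were named for their fold change. The printed window was chosen after values were seen. Alternatives covered scaling, offset, dim genes, probe sets, arrays fitted, variance model, array weights, a replicate block, a muscle covariate and each array left out, with 1 pair of arrays left out as an alternative added after seeing the data.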

Additional observations from a re-analysis of the deposited data

Results flagged for a closer look

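In each group the array at either end was compared with its neighbour by Dixon's test, over 126 combinations of gene and group, and 13 stood apart. Chance flags about 1 in 20 groups. Of the 13, 5 were low values of anti-RGMa replicate 6, at 9.92 for Gria4 (others 10.72 to 10.90), 9.17 for Grm5, 9.38 for Cacng2, 6.18 for Cacng3 and 9.71 for Dlg2. This array was also at the low end of its group for neuron markers (mean 11.52) and at the high end for macrophage markers (12.27), and their part in these values was not tested. High values were seen in naive replicate 6 for Gria4 (11.79, others 11.33 to 11.40) and Cacng2 (11.24), and in naive replicate 5 for Grm5 (10.97). Naive replicate 4 was low for the dim Grin2a (4.29) and anti-RGMa replicate 3 for the dim Shank1 (3.43). Cacng4 was low in anti-RGMa replicate 4 (8.17), Dlgap1 high in anti-RGMa replicate 5 (9.84) and Homer1 high in isotype control replicate 1 (9.35).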

How the results depend on the processing

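The members' counts depended on the scaling more than on the other settings. Isotype control against naive gave 2 lower and 14 higher with neuron marker centring (median 0.45), beside 75 and 11628 over all genes (median 0.98). Array medians gave a median of -0.80, against -0.27 over all genes. Anti-RGMa against naive gave 15 lower with array medians (median -0.48), beside 3039 over all genes (median -0.22). Quantile normalization gave a median of -0.46, against -0.16 over all genes. Neuron marker centring gave 1 lower and 4 higher (median 0.29), beside 87 and 6705 over all genes (median 0.55). Without anti-RGMa replicates 1 and 6, which hold raised dorsal root ganglion markers and were left out together after seeing the data, 6 genes were lower against naive, and 3 were higher than in isotype control cords. Over all genes 1094 were lower and 563 higher in the same comparisons. Between the antibody groups neuron marker centring gave 3 lower (median -0.17), beside 3286 over all genes (median -0.43). Of the 42, 1 was higher there with quantile normalization and 1 with array weights (Cacng3 in both), beside 266 and 304 over all 18194 genes. The muscle covariate gave 2 higher (Cacng3 and Grm8) and the replicate block 2 (Cacng3 and Dlgap2), beside 328 and 348 over all genes. Same-numbered arrays did not deviate together (correlations -0.06 to 0.07). This cannot show whether the numbers pair the mice, and the labels do not say. With the replicate block 18 genes were lower in isotype control and 9 in anti-RGMa cords against naive, beside 2887 and 1508 over all genes.

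Each array was left out in turn. For isotype control against naive 15 to 21 genes were lower and 0 higher (median -0.64 to -0.52), beside 2454 to 2912 lower over all genes. The lower calls of Cacng2, Cacng7, Cacng8, Dlg2, Dlgap3, Grin2b, Grin3a and Grm4 were lost without at least 1 array, Dlg2 and Grm4 without isotype control replicate 1 (-0.57 and -0.55) and Grm4 without naive replicate 4, Grin3a without naive replicate 6 or isotype control replicate 1 (as low as -0.53). For anti-RGMa against naive 5 to 12 were lower and 0 higher (median -0.32 to -0.23), fewest without anti-RGMa replicate 6, and Grm7 was lost without naive replicate 6 or anti-RGMa replicate 4, 5 or 6. Over all genes 1059 to 1732 were lower, again fewest without anti-RGMa replicate 6. Between the antibody groups 0 were lower and 0 to 3 higher (median 0.18 to 0.33), beside 349 to 685 lower and 180 to 537 higher over all genes. Signs that turned in at least 1 such fit gave, for isotype control against naive, Cacng5 -0.0369 to 0.12, Cacng6 -0.28 to 0.71, Shank1 -0.21 to 0.0285. For anti-RGMa against naive, Cacng6 -0.28 to 0.0949, Dlg4 -0.10 to 0.10, Grik2 -0.13 to 0.0834, Homer3 -0.0288 to 0.0653, Shank1 -0.31 to 0.30, Shank3 -0.13 to 0.0773. For anti-RGMa against isotype control, Cacng4 -0.0364 to 0.16, Cacng6 -0.81 to 0.18, Dlgap1 -0.0116 to 0.15, Dlgap4 -0.12 to 0.0123, Grik3 -0.11 to 0.0476, Grik4 -0.0264 to 0.19, Shank1 -0.19 to 0.42.

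Centring on the neuron markers moved the median of all genes to 0.98 in isotype control against naive. That median was 0.55 in anti-RGMa against naive and -0.43 between the antibody groups. The centring turned the sign of these log2 fold changes. In isotype control against naive they became Gria1 0.47, Gria3 0.0555, Grik1 0.24, Grik2 0.86, Grik3 0.57, Grik4 0.71, Grin2a 0.82, Grin2b 0.33, Grin2c 0.46, Grin2d 0.56, Grin3a 0.39, Grin3b 0.65, Grm2 0.26, Grm3 0.17, Grm4 0.39, Grm5 0.0124, Grm7 0.0384, Cacng2 0.29, Cacng7 0.44, Cacng8 0.33, Dlg1 0.81, Dlg2 0.32, Dlg3 0.81, Dlg4 0.68, Dlgap1 0.70, Dlgap3 0.36, Shank1 0.90, Shank3 0.89, Homer1 0.48 and Homer2 0.24. In anti-RGMa against naive they became Gria1 0.30, Grik1 0.25, Grik2 0.55, Grik3 0.10, Grik4 0.32, Grin2a 0.16, Grin2b 0.16, Grin2c 0.29, Grin2d 0.39, Grin3a 0.26, Grin3b 0.38, Grm2 0.11, Grm3 0.0689, Grm4 0.27, Cacng2 0.29, Cacng5 0.47, Cacng6 0.48, Cacng7 0.42, Cacng8 0.0428, Dlg1 0.41, Dlg2 0.28, Dlg3 0.44, Dlg4 0.54, Dlgap1 0.34, Dlgap3 0.0316, Shank1 0.46, Shank3 0.52, Homer1 0.32 and Homer2 0.0274. In anti-RGMa against isotype control they became Gria1 -0.17, Gria2 -0.0576, Gria3 -0.18, Gria4 -0.0647, Grik2 -0.32, Grik4 -0.40, Grik5 -0.34, Grid1 -0.0227, Grin2b -0.17, Grin2c -0.17, Grin2d -0.17, Grin3a -0.13, Grin3b -0.26, Grm2 -0.15, Grm3 -0.10, Grm4 -0.12, Grm5 -0.15, Grm7 -0.0685, Cacng4 -0.39, Cacng7 -0.0204, Cacng8 -0.29, Dlg1 -0.40, Dlg2 -0.0341, Dlg3 -0.37, Dlg4 -0.14, Dlgap1 -0.36, Dlgap3 -0.33, Shank1 -0.44, Shank3 -0.37, Homer1 -0.16 and Homer2 -0.21. Array medians gave Grik5 -0.13, Cacng5 -0.17, Cacng6 -0.0889 and Homer3 -0.0482 in isotype control against naive, and Grik5 -0.0017 and Homer3 -0.16 in anti-RGMa against naive, and Grik3 0.0008 in anti-RGMa against isotype control. Quantile normalization gave Grik5 -0.0539, Cacng5 -0.13, Cacng6 -0.0806 and Homer3 -0.12 in isotype control against naive, and Homer3 -0.23 in anti-RGMa against naive, and Grik3 0.0154 in anti-RGMa against isotype control. The mean of probe sets gave Grik3 0.12, Grin2d -0.29 and Homer1 -0.21 in anti-RGMa against isotype control. The muscle covariate gave Grin2a 0.0265 and Cacng6 -0.54 in isotype control against naive, and Grik4 -0.0279, Cacng6 0.26 and Dlgap4 0.0257 in anti-RGMa against isotype control. The replicate block gave Cacng4 -0.0022 in anti-RGMa against isotype control. Array weights gave Dlg4 0.0835 and Shank3 0.0831 in anti-RGMa against naive, and Shank1 -0.0677 in anti-RGMa against isotype control. An offset of 32 gave Shank1 0.0089 in anti-RGMa against naive. Leaving out anti-RGMa replicates 1 and 6 gave Grik2 0.0098, Dlg4 0.0661 and Shank3 0.16 in anti-RGMa against naive, and Grik3 0.0431, Grm2 -0.28 and Cacng4 -0.0058 in anti-RGMa against isotype control.

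For pairs of genes within an array, the mean of probe sets gave Gria4 minus Gria2 -0.67, Grm3 minus Grm5 -0.0301, Dlg4 minus Dlg1 -0.52 in isotype control against naive, and Gria2 minus Gria1 -0.22, Gria4 minus Gria2 -0.60, Grin2a minus Grin2b -0.11, Grin2d minus Grin2b -0.0584, Dlg4 minus Dlg1 -0.54, Homer1 minus Homer3 -0.59 in anti-RGMa against naive, and Gria4 minus Gria2 0.0704, Dlg4 minus Dlg1 -0.0216, Homer1 minus Homer3 -0.0608 in anti-RGMa against isotype control. An offset of 32 gave Shank3 minus Shank1 -0.0582 in anti-RGMa against naive, and Shank3 minus Shank1 -0.0002 in anti-RGMa against isotype control. The replicate block gave Gria2 minus Gria1 -0.52, Shank3 minus Shank1 0.0928, Homer1 minus Homer3 -0.73 in isotype control against naive, and Gria2 minus Gria1 -0.41 in anti-RGMa against naive, and Gria4 minus Gria2 0.0318 in anti-RGMa against isotype control. With the replicate block no pair could pass, since the smallest adjusted p was 0.25 (exact permutation). With a naive or isotype control array left out, the smallest possible p was too high for these adjusted values, so that the pairs that then missed the threshold (Gria2 minus Gria1 and Homer1 minus Homer3) say nothing about their stability. Without an anti-RGMa array Gria2 minus Gria1 in anti-RGMa against naive passed in all 6 fits. Dlg4 minus Dlg1 passed between the antibody groups without anti-RGMa replicate 6 (0.34). The ranges with 1 array left out were, for isotype control against naive, Gria2 minus Gria1 -0.58 to -0.49, Homer1 minus Homer3 -0.80 to -0.64, Shank3 minus Shank1 -0.20 to 0.13. For anti-RGMa against naive, Gria2 minus Gria1 -0.46 to -0.33, Grin2a minus Grin2b -0.15 to 0.11, Shank3 minus Shank1 -0.40 to 0.22. For anti-RGMa against isotype control, Dlg4 minus Dlg1 0.20 to 0.34, Gria4 minus Gria2 -0.0705 to 0.0353, Grin2d minus Grin2b -0.0453 to 0.0605, Grm3 minus Grm5 -0.0455 to 0.16, Shank3 minus Shank1 -0.39 to 0.25.

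On the log2 scale without offset, the fold changes of the 7 members with a mean signal under 7 are less certain. Their means ran from 4.38 (Cacng6) to 6.82 (Cacng8), against group means of 4.09 to 4.54 for the background reference. No detection calls were used here. Arrays cannot separate cell numbers from RNA per cell, and 5 or 6 mice per group limit which differences between the antibody groups can be seen.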
